A study of Rattus norvegicus with 10 samples.

Results

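The genes described here encode voltage-gated channels and potassium channels, the membrane proteins that set the electrical activity of excitable cells. They were chosen by name: every gene whose symbol in the platform annotation begins with Kcn, Cacn or Hcn, or with Scn followed by a digit, and that had a value in at least 3 samples of each group. The array held 133 probes for 109 such genes, and 66 of the genes, with 72 probes, met the rule on values, out of 9968 genes tested in all. The samples were cultured rat pancreatic islets, which hold the pancreatic endocrine cells, from male Sprague-Dawley rats. In 5 samples the islets received an adenovirus that expresses hamster Nkx6.1 from the CMV promoter (Nkx6.1 is a β-cell transcription factor with a homeodomain), and in 5 they received the same kind of virus with bacterial β-galactosidase (bGAL). Every sample was a pool of about 200 islets, and the 5 samples of a group came from independent isolations. The virus was present for 18 h and the islets were then kept for another 60 h in 8 mM glucose, so both groups were virus-treated and no untreated islets were compared. RNA of each sample, in Cy5, was hybridised with one rat reference RNA, in Cy3, on a 2-colour oligonucleotide array. Precision is limited by having 5 arrays in each group.

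In a β cell, potassium channels closed by ATP hold the membrane near its resting potential until glucose metabolism shuts them. The membrane then depolarises, sodium and calcium channels fire action potentials, and calcium entry triggers release of insulin. Voltage-gated and calcium-activated potassium channels end each action potential, and two-pore channels carry a background potassium current. Each channel is built from a pore subunit, and auxiliary subunits alter its gating and its transport to the membrane.

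A value here was read as the log2 ratio to the reference RNA, centred on the probe's own median over the 10 samples. A level of a gene, or an order of levels between genes, can therefore not be read, and 0 means the middle sample and not absence. A higher value was taken to mean more islet signal relative to the reference RNA, so a positive value is a ratio above that of the middle sample. This direction is likely although no source used here states it. Its basis was the probes with tied values, in which 3 or more samples held the same value to 4 decimals, read here as a floor. The mean of array set 2, defined next, lay above that tied value for 6 of 6 probes of neuroendocrine and secretion genes and for 0 of 13 probes of DNA replication and mitosis genes, against 3974 of all 7209 such probes and 32 of 43 channel probes. Pairs of arrays had a Pearson correlation across probes of −0.11 to 0.36 and a Spearman correlation of −0.48 to 0.44, on values centred per probe. Were the ratio the other way round, every sign below would turn. The arrays fell into 2 sets by the share of probes without a value, defined after the values were seen. The labels do not say what these sets are. In array set 1, with Nkx6.1 replicate 1 and bGAL replicates 1, 2, 3 and 5, between 27.2% and 32.5% of all probes had no value. In array set 2, with Nkx6.1 replicates 2 to 5 and bGAL replicate 4, it was 0.815% to 9.12%. Set and group were thus largely aligned, and for genes without tied values each set's own difference is shown too. In Nkx6.1 replicate 2 the spread of all probes was widest, with an interquartile range of 1.09 against 0.35 to 0.58 in the others. The islet hormone genes Ins1, Ins2, Iapp, Gcg and Sst had values without ties in all 10 samples. The probe for endogenous rat Nkx6-1, which need not detect the hamster gene of the virus, differed by −0.56 ± 0.29 (log2, SE, limma adjusted p = 0.54), so it does not check the labels.

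The channel probes were strongly affected by the split of the arrays. In array set 1, 49 to 62 of these 133 probes lacked a value and between 26 and 44 stood at their tied value. Of the array set 2 samples, Nkx6.1 replicate 2 lacked 18 values and had 20 at the tied value, while Nkx6.1 replicates 3 to 5 and bGAL replicate 4 lacked at most 4 and had 0 at the tied value. The 66 genes were therefore described in 3 classes, set after the values were seen. A total of 40 genes had a probe with tied values, 7 had none but had a value above 8 in size, as did 5 of the 40, and 19 had neither. The last class is where the 2 groups can best be compared on measured values. A value shared by only 2 samples was not counted as tied. In Kcnh2, Kcnj9, Kcnj14 and Kcnq5 of this class, Nkx6.1 replicate 1 and bGAL replicate 3 shared 1 value. Whether that value is a floor was not tested. The differences within array set 1 given for these genes depend on it, since Nkx6.1 replicate 1 is the only Nkx6.1 sample there.

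**Figure D1:**
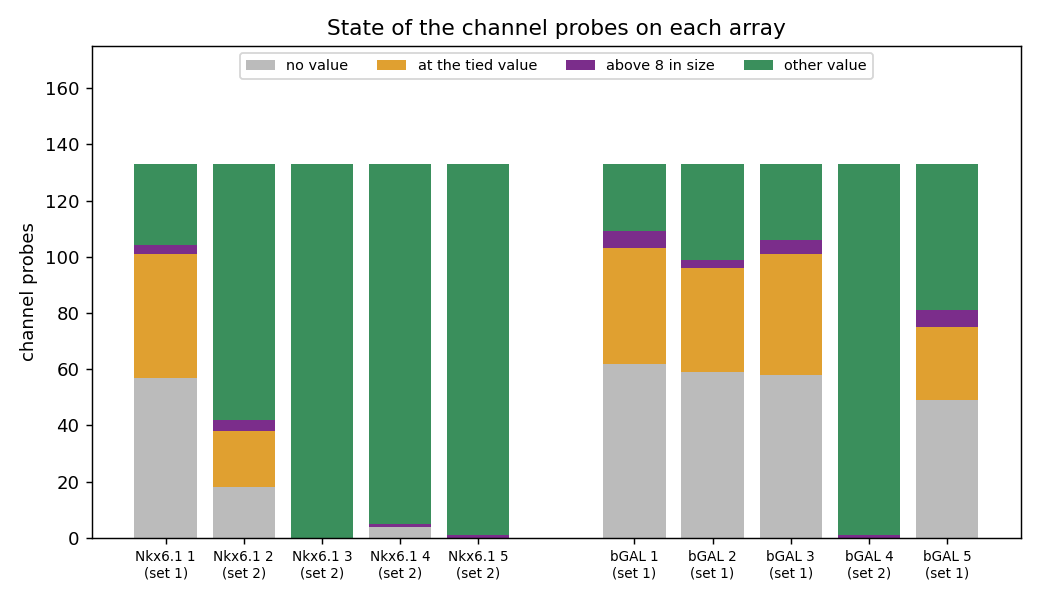
Number of the 133 channel probes in each state on each array, with the Nkx6.1 samples on the left and the bGAL samples on the right (bars stack to 133). Samples of array set 1 have between 24 and 52 probes with an ordinary value, against 91 in Nkx6.1 replicate 2 and 128 to 133 in the other 4 samples of array set 2.

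The comparison asked whether islets that received the Nkx6.1 virus differed in their channel transcripts from islets given the bGAL virus. The title of the study speaks of proliferation with retained β-cell function. None of the 66 channel genes passed the threshold (limma, Benjamini-Hochberg adjusted p under 0.05 over all genes), where 0.15% of the 9968 genes did, 0.11% with a higher and 0.0401% with a lower mean. At an unadjusted p under 0.05 there were 6 channel genes, all with a lower mean with the Nkx6.1 virus, and 0 higher. They were 9.09% of the channel genes. Over all genes, 9.73% had such a p in either direction, and 5.14% had it with a lower mean. In the 19 genes without tied or extreme values there were 4 (21.1%), all lower. Of all genes of that kind 12.6% had such a p, 357 with a lower and 366 with a higher mean. The 6 channel genes were Kcnj13, Kcnn2, Cacna2d1 and Kcnh6, and Scn9a and Kcns3 with extreme values. The median log2 difference (Nkx6.1 minus bGAL) was −0.15 over the 66 genes and −0.055 over all genes, with 27 of the 66 positive and 39 negative. Within the 19 genes without tied or extreme values, 12 were negative and 7 positive, with a median of −0.17 against −0.061 for all 5730 genes of that kind. The largest differences in this class, which did not pass, were those of Kcnn2, Kcna4, Kcnj13, Kcnh8, Kcnmb2, Cacna2d1, Kcnd1 and Kcnh6, the 8 genes with a log2 difference below −1. With array weights, limma called 5 channel genes, Kcnn2, Kcnj13, Cacna2d1, Kcna10 and Scn9a, all with a lower mean, where 5.09% of all genes were called. Fewer cells of a type and less RNA per cell cannot be told apart in such bulk samples.

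**Figure D2:**
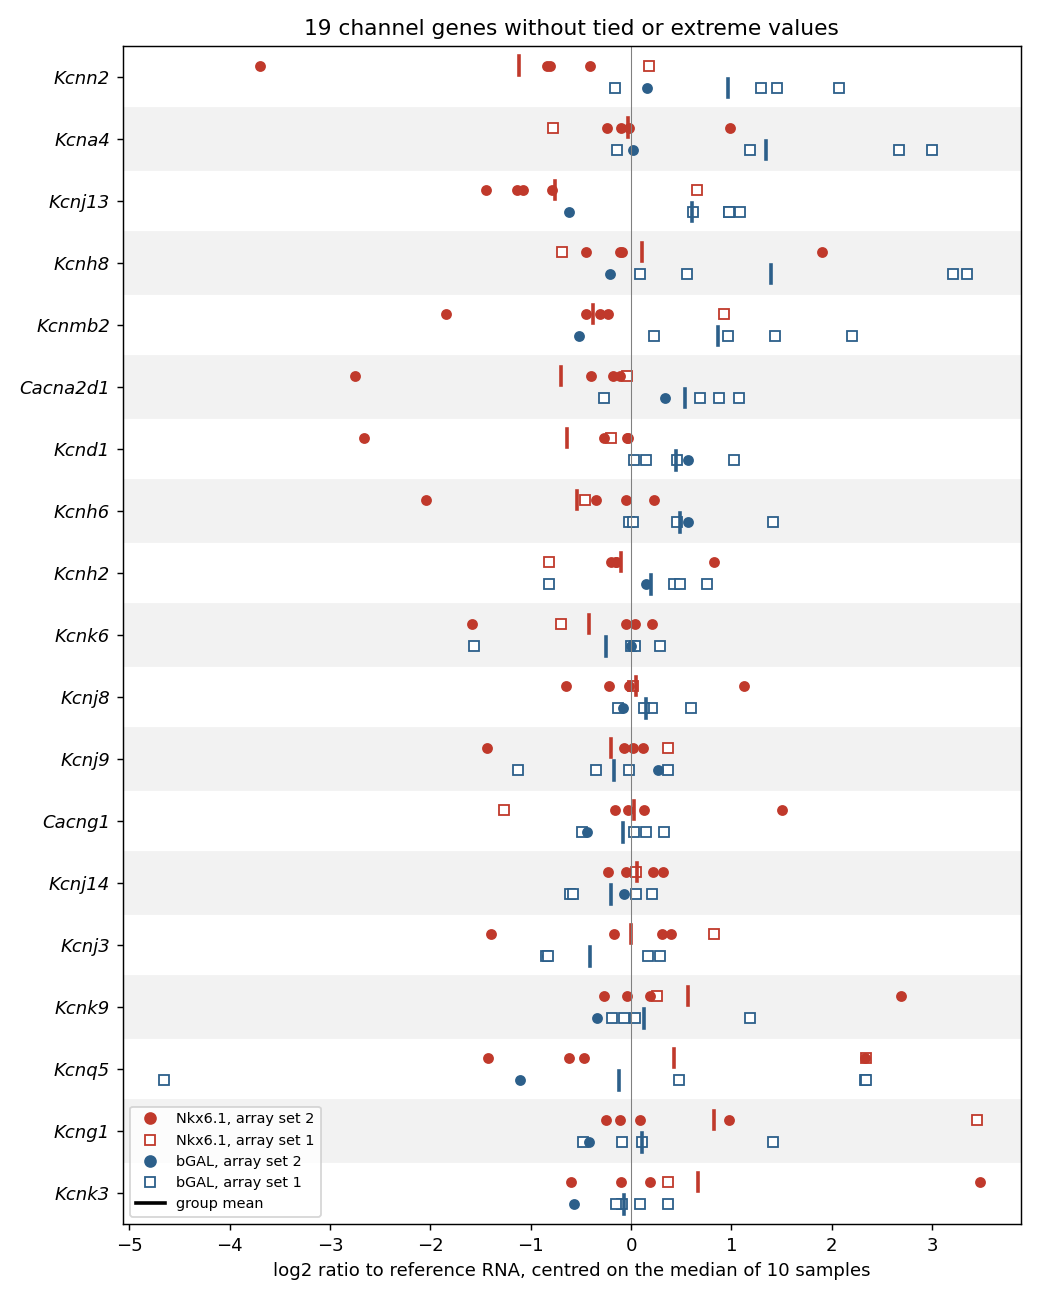
Values of the 19 channel genes without tied or extreme values, sorted by difference (x axis: centred log2 ratio; each point 1 sample, Nkx6.1 above bGAL in each row, filled for array set 2 and open for array set 1, bar for the group mean). The groups overlap in every gene but Kcnd1, whose 5 Nkx6.1 samples all lie below the 5 bGAL samples.

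Potassium channel pore subunits that respond to calcium were led by Kcnn2, which encodes a small-conductance channel opened by intracellular calcium (SK2). Kcnn2 stood at 0.18, −3.69, −0.84, −0.81 and −0.40 in Nkx6.1 replicates 1 to 5, and at 2.07, 1.29, 1.46, 0.16 and −0.16 in bGAL replicates 1 to 5. All of the Nkx6.1 samples but replicate 1 lay below every bGAL sample, and Nkx6.1 replicate 2 was by far the lowest. The mean was −1.11 ± 1.5 in Nkx6.1 islets and 0.96 ± 0.93 in bGAL islets (SD, n = 5 each), or −2.08 ± 0.72 (SE, limma adjusted p = 0.44) as the log2 difference. Kcnn2 differed by −0.99 in array set 1 alone and −1.59 in array set 2 alone, and by −1.43 without Nkx6.1 replicate 2. The related Kcnn4, which encodes the intermediate-conductance channel and had tied values, differed by −0.43, and its sign turned without Nkx6.1 replicate 2 (0.35). Kcnt1 and Kcnt2, which encode sodium-activated channels, were tied in array set 1 and differed by −0.011 and −0.48. Kcnmb2, an auxiliary subunit of the large-conductance calcium-activated channel, stood at 0.93, −0.45, −1.84, −0.31 and −0.23 in Nkx6.1 replicates 1 to 5, and at 2.20, 0.97, 1.43, −0.52 and 0.23 in bGAL replicates 1 to 5. In this gene every array set 1 sample, in both groups, lay above every array set 2 sample, and bGAL replicate 4 lay among the Nkx6.1 samples of its set. The difference was −1.24 ± 0.60 (SE, limma adjusted p = 0.53), but −0.28 in array set 1 alone and −0.18 in array set 2 alone. Kcnmb4, another auxiliary subunit of that channel, had tied values and differed by −0.36.

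Among the inward rectifiers, Kcnj13 (Kir7.1), known from epithelia that transport ions, had the smallest p of the 19 genes. Kcnj13 stood at 0.66, −1.07, −0.79, −1.45 and −1.14 in Nkx6.1 replicates 1 to 5, and at 1.08, 0.98, 0.62, −0.62 and 0.97 in bGAL replicates 1 to 5. Nkx6.1 replicate 1 and bGAL replicates 1, 2, 3 and 5, the array set 1 samples, were all above the 5 samples of array set 2. The mean was −0.76 ± 0.83 in Nkx6.1 islets and 0.61 ± 0.71 in bGAL islets (SD, n = 5 each), a difference of −1.37 ± 0.46 (SE, limma adjusted p = 0.42), and it was −0.26 in array set 1 alone and −0.49 in array set 2 alone. Kcnj8 (Kir6.1), a pore subunit of ATP-sensitive channels in vascular smooth muscle, stood at 0.016, 1.13, −0.016, −0.65 and −0.22 in Nkx6.1 replicates 1 to 5, and at 0.21, 0.60, −0.13, −0.083 and 0.13 in bGAL replicates 1 to 5, and differed by −0.093 ± 0.32 (SE, limma adjusted p = 0.90). It was −0.19 in array set 1 alone and 0.14 in array set 2 alone, and −0.36 without Nkx6.1 replicate 2. Kcnj3 and Kcnj9 encode subunits of channels opened by G proteins (GIRK1 and GIRK3). Kcnj3 differed by 0.41 ± 0.44 (SE, limma adjusted p = 0.68), with 1.13 in array set 1 alone and 0.63 in array set 2 alone, and 0.75 without Nkx6.1 replicate 2. For Kcnj9 the difference was −0.031, and it had opposite signs within array sets 1 and 2 (0.65 and −0.61). Kcnj14 differed by 0.26 ± 0.21 (SE, limma adjusted p = 0.61), with 0.28 in array set 1 alone and 0.14 in array set 2 alone, the smallest SE of the 19 genes. The third GIRK gene of the list, Kcnj6 (GIRK2), had tied values in array set 1, and its difference was 0.29.

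Kcnj11 (Kir6.2), the pore of the ATP-sensitive channel that links glucose metabolism to the membrane potential of β cells, could be followed in array set 2 only. It was tied within 0.01 of 0 in all 5 samples of array set 1, stood at 0.027, 0.59, 0.46 and −0.21 in Nkx6.1 replicates 2 to 5, and at 0.74 in bGAL replicate 4. All 4 Nkx6.1 samples of that set lay below its only bGAL sample, a difference of −0.52, whereas the difference over the 10 samples was 0.025 ± 0.23 (SE, limma adjusted p = 0.97). Its partner Abcc8, the sulfonylurea receptor SUR1, had no tied values and stood at 0.55, 0.90, −0.059, −0.87 and −0.33 in Nkx6.1 replicates 1 to 5, and at 0.18, 0.70, −0.18, −0.084 and −0.42 in bGAL replicates 1 to 5. The groups of Abcc8 overlapped throughout, and its log2 difference was within 0.01 of 0 with an SE of 0.35 (limma adjusted p = 0.998).

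The voltage-gated potassium pore subunits formed the largest group, with 21 of 66 genes, of which 9 had a positive and 12 a negative difference and 0 passed. Kcnd1 (Kv4.1), a rapidly inactivating channel of the A type, was the single channel gene without tied values whose groups did not overlap. It stood at −0.20, −2.66, −0.27, −0.028 and −0.045 in Nkx6.1 replicates 1 to 5, and at 0.15, 0.45, 0.028, 0.56 and 1.03 in bGAL replicates 1 to 5. The groups were separated by a narrow gap, between Nkx6.1 replicate 4 and bGAL replicate 3, and Nkx6.1 replicate 2 was far below the rest. The difference was −1.08 ± 0.50 (SE, limma adjusted p = 0.52), with −0.62 in array set 1 alone and −1.31 in array set 2 alone, and −0.58 without Nkx6.1 replicate 2. Over all genes the groups did not overlap in 4.07%, with 1.97% in this direction (2.86% of genes without tied or extreme values) and 2.11% in the other, where the 1 channel gene was Kcnh4, singled out after its values were seen, with a difference of 0.58. For Kcnh4, which has tied values, bGAL replicates 1 to 3 and Nkx6.1 replicate 1 were all within 0.01 of 0, so the groups were apart by less than that.

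Kcna4 (Kv1.4), another A-type channel, stood at −0.78, 0.99, −0.10, −0.24 and −0.021 in Nkx6.1 replicates 1 to 5, and at 2.99, 1.18, 2.67, 0.021 and −0.14 in bGAL replicates 1 to 5. The 3 highest values were those of bGAL replicates 1, 2 and 3, Nkx6.1 replicate 2 came next, and bGAL replicates 4 and 5 lay among the Nkx6.1 samples. The difference was −1.38 ± 0.65 (SE, limma adjusted p = 0.53), with −2.46 in array set 1 alone and 0.14 in array set 2 alone, so its sign differed between the sets. Kcnh8, a channel of the ether-a-go-go family, showed a like pattern in that bGAL replicates 2 and 3 were highest. It stood at −0.69, 1.90, −0.11, −0.45 and −0.092 in Nkx6.1 replicates 1 to 5, and at 0.092, 3.35, 3.21, −0.21 and 0.56 in bGAL replicates 1 to 5. Its difference was −1.29 ± 0.82 (SE, limma adjusted p = 0.57), with −2.49 in array set 1 alone and 0.52 in array set 2 alone. Kcnh2 and Kcnh6 encode channels of the ERG type, which carry a potassium current that shapes action potentials. Kcnh6 stood at −0.45, −2.04, −0.050, 0.23 and −0.35 in Nkx6.1 replicates 1 to 5, and at −0.022, 0.45, 0.022, 0.57 and 1.41 in bGAL replicates 1 to 5, a difference of −1.02 ± 0.44 (SE, limma adjusted p = 0.51) that was similar in the 2 array sets (−0.92 and −1.12). Without Nkx6.1 replicate 2 it was −0.64. Kcnh2 differed by −0.30 ± 0.36 (SE, limma adjusted p = 0.72), with −1.03 in array set 1 alone and −0.062 in array set 2 alone, and −0.53 without Nkx6.1 replicate 2.

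Both directions were seen among the remaining voltage-gated pore subunits without tied values. Kcng1, a subunit that does not form channels alone and modifies Kv2 channels, stood at 3.45, 0.98, −0.11, −0.25 and 0.092 in Nkx6.1 replicates 1 to 5, and at 1.42, −0.092, −0.48, −0.42 and 0.11 in bGAL replicates 1 to 5, with 1 high sample in each group, both in array set 1. It differed by 0.72 ± 0.71 (SE, limma adjusted p = 0.65), with 3.21 in array set 1 alone and 0.60 in array set 2 alone. With a term for the array set this was 1.90, and without Nkx6.1 replicate 1 it was 0.068. Kcnq5, an M-type channel subunit, differed by 0.56 ± 1.39 (SE, limma adjusted p = 0.86), and 4 of its samples stood between 2.33 and 2.34, in both groups. For Kcnq5 it was 2.22 in array set 1 alone and 1.06 in array set 2 alone, and 0.081 without Nkx6.1 replicate 2. For Kcnc2 (Kv3.2), a channel of fast repolarisation, 2 of 3 probes had tied values. The third probe of Kcnc2 stood at −0.47, −0.53, 0.03, −0.24 and −0.12 in Nkx6.1 replicates 1 to 5, and at 1.86, 1.76, 2.20, −0.03 and 0.56 in bGAL replicates 1 to 5, again high in bGAL replicates 1 to 3. With the mean of its 3 probes Kcnc2 differed by −1.62, largely through 1 value of 19.5 in bGAL replicate 5 on another probe. Kcnq1, which had tied values, differed by 0.22. Kcng3, which had tied values and values above 8 in size, differed by −2.42. The other 9 genes of the group with tied values were Kcna1, Kcna2, Kcna5, Kcna6, Kcna10, Kcng4, Kcnh1, Kcnh5 and Kcnq3, and their differences lay between −1.69 (Kcna1) and 0.71 (Kcng4).

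**Figure D3:**
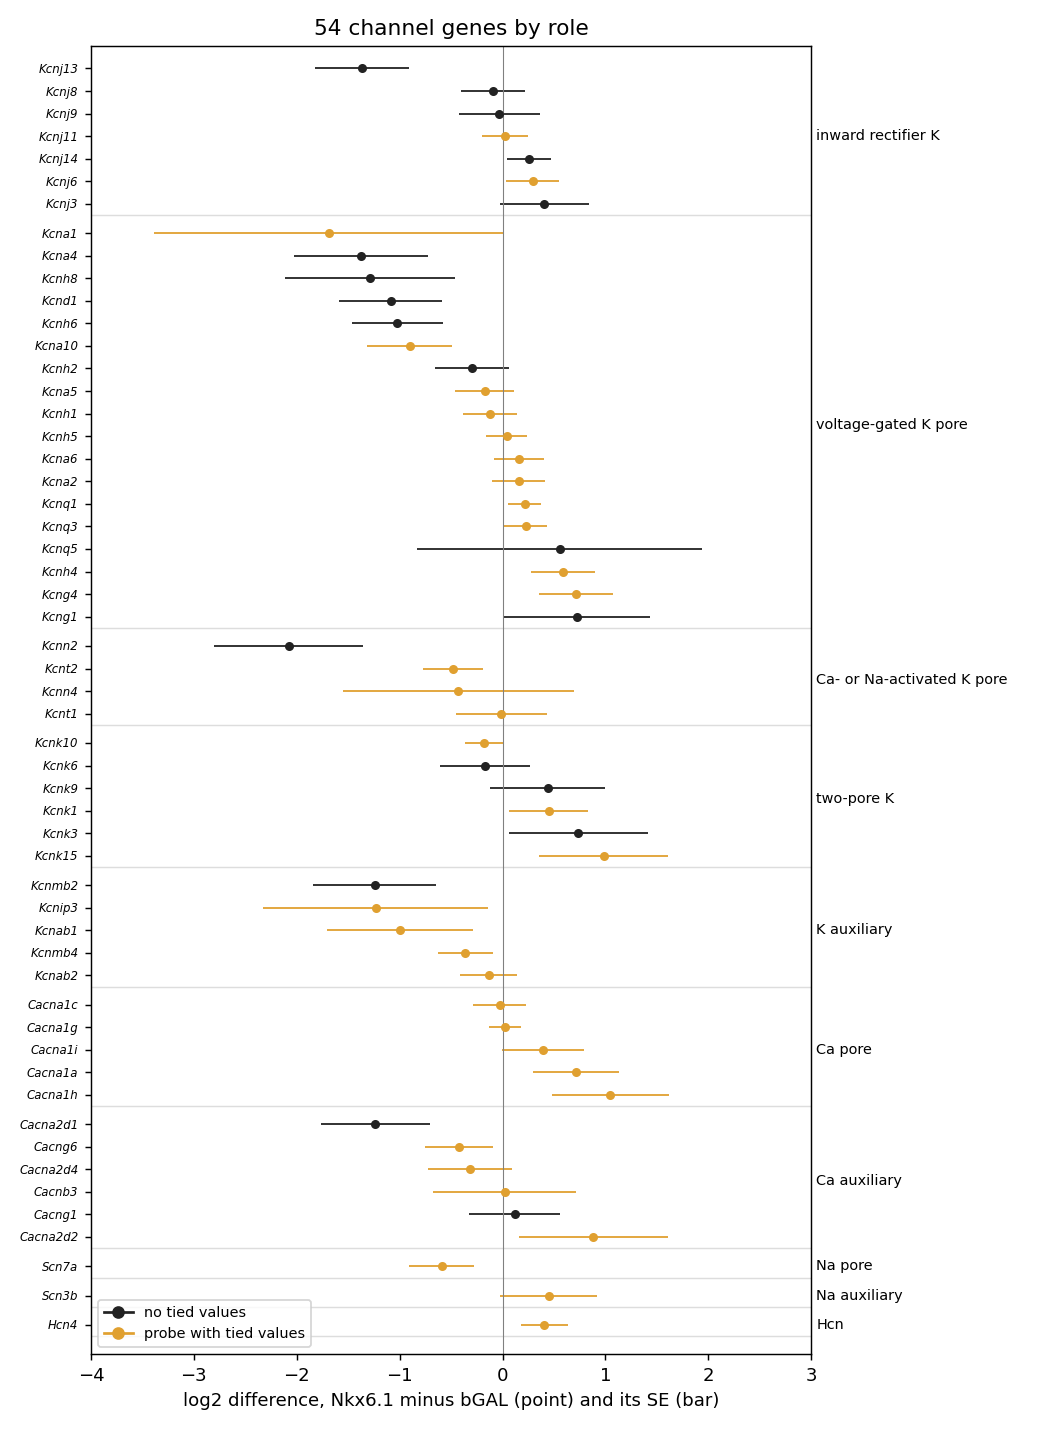
Log2 difference, Nkx6.1 minus bGAL, with its SE, for the 54 channel genes of which no tested probe had a value above 8 in size, grouped by role (black: no tied values, orange: a probe with tied values). The points furthest to the left are Kcnn2, Kcna1, Kcna4 and Kcnj13.

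The promoters of 3 of these genes are shown because Kcnj13 and Kcnn2 had the smallest p of the 19 genes and Kcna4 is one of 3 tested channel genes with the longer motif below. Homeodomain proteins such as Nkx6.1 are known to bind A- and T-rich DNA with a TAAT core, and TAAT or its reverse complement ATTA, and TTAATT or its reverse complement AATTAA, were searched on both strands (TAAT lies within TTAATT). The sequences are RefSeq's (build GRCr8), 300 bases that span the start of the gene, 5′ to 3′, with the motifs in capitals. Their positions are chr9:95518937-95519236, minus strand, for Kcnj13, chr18:40300677-40300976, plus strand, for Kcnn2, and chr3:114215086-114215385, plus strand, for Kcna4.
Kcnj13: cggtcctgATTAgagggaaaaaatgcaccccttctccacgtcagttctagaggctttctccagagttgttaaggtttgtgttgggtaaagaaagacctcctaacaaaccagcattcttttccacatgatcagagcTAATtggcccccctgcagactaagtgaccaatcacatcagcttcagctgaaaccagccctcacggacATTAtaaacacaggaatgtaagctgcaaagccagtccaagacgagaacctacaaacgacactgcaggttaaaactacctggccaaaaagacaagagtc
Kcnn2: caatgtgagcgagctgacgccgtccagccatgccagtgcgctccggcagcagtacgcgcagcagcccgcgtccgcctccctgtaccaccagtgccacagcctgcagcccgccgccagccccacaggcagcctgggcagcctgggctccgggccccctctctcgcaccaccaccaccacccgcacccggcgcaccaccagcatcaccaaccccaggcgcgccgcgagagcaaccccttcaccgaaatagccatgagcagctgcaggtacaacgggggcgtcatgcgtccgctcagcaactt
Kcna4: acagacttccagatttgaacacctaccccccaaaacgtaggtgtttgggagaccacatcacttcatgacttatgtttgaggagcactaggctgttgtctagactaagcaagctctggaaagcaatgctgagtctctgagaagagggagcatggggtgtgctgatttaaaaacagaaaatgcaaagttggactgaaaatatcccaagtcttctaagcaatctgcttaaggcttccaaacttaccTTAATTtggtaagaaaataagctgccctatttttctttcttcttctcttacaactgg
The Kcnj13 window held 3 such cores, the Kcna4 window 1, within TTAATT, and the Kcnn2 window 0. Of the 42 tested channel genes with a promoter in the table, 15 (35.7%) held TAAT on either strand, against 60.6% of all 33469 promoters, and 3 (7.1%) held TTAATT, against 12.4%. The 3 were Kcna2, Kcna4 and Kcns3. Channel genes were counted per gene, and the comparison per promoter over genes tested here or not. The shares are therefore not strictly alike, and their difference was not tested. A match is a description of these letters and not a binding site.

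Two-pore channels carry background potassium current, and 8 of their genes were tested, 4 with a positive and 4 with a negative difference. Kcnk3 (a TASK channel) stood at 0.36, 3.47, −0.10, −0.60 and 0.19 in Nkx6.1 replicates 1 to 5, and at 0.36, 0.086, −0.086, −0.56 and −0.15 in bGAL replicates 1 to 5. Its difference of 0.74 ± 0.68 (SE, limma adjusted p = 0.64) rested on Nkx6.1 replicate 2, and without that sample it was 0.033. It was 0.31 in array set 1 alone and 1.30 in array set 2 alone. Kcnk9 (another TASK channel) also had its highest value in that sample, at 2.69, and its difference was 0.44 ± 0.56 (SE, limma adjusted p = 0.73), turning to −0.093 without it, and 0.012 in array set 1 alone and 0.98 in array set 2 alone. Kcnk6 (a TWIK channel) differed by −0.17 ± 0.44 (SE, limma adjusted p = 0.87), with the lowest value of each group close together, −1.59 in Nkx6.1 replicate 2 and −1.56 in bGAL replicate 3. For Kcnk6 it was −0.39 in array set 1 alone and −0.35 in array set 2 alone, and 0.12 without Nkx6.1 replicate 2. Kcnk1 (another TWIK channel) was tied in array set 1. In array set 2 it stood at 0.23, 1.08, 1.08 and 0.49 in Nkx6.1 replicates 2 to 5, all below the 1.33 of bGAL replicate 4. Over the 10 samples the sign of Kcnk1 was the opposite, with a difference of 0.45. Kcnk10 and Kcnk15, tied in array set 1, differed by −0.18 and 0.98, and Kcnk15 by 0.32 without Nkx6.1 replicate 2.

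All 7 calcium channel pore genes were tested on probes with tied values only. Cacna1d, which with Cacna1c encodes the L-type pore that carries most calcium entry in β cells, had 2 probes tied in array set 1. Its mean stood at 6.64, 0.68, 0.25 and 0.45 in Nkx6.1 replicates 2 to 5 and at 0.15 in bGAL replicate 4. The value of Nkx6.1 replicate 2 came from 1 probe at 13.28, and the difference of 1.58 ± 1.15 (SE, limma adjusted p = 0.59) was 0.32 without that sample. Cacna1c stood at 0.060, 0.32, −0.96 and 0.51 in Nkx6.1 replicates 2 to 5 and at 0.075 in bGAL replicate 4, a difference of −0.029 over the 10 samples. Cacna1a, the P/Q-type pore, differed by 0.71, and the T-type pore genes Cacna1g, Cacna1h and Cacna1i by 0.022, 1.05 and 0.39. In array set 2, Cacna1h was 3.27, 0.56, 1.21 and 0.10 in Nkx6.1 replicates 2 to 5 and 0.20 in bGAL replicate 4, so that 3 of 4 Nkx6.1 samples were above it. Without Nkx6.1 replicate 2 the difference of Cacna1h was 0.48. Cacna1b, the N-type pore, ranged from −3.11 to 5.12 in Nkx6.1 samples and from −3.11 to 12.17 in bGAL samples, and its difference of −1.31 had an SE of 2.73.

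Auxiliary subunits of calcium channels were represented by 8 genes, 3 with a positive and 5 with a negative difference. Cacna2d1, the α2δ subunit that raises the number of calcium channels at the membrane, had 2 probes without tied values. Their mean stood at −0.043, −2.75, −0.18, −0.40 and −0.11 in Nkx6.1 replicates 1 to 5, and at 1.08, 0.87, 0.69, 0.33 and −0.27 in bGAL replicates 1 to 5. All Nkx6.1 samples lay below bGAL replicates 1 to 4, and bGAL replicate 5 lay among them. The mean was −0.70 ± 1.15 in Nkx6.1 islets and 0.54 ± 0.53 in bGAL islets (SD, n = 5 each), a difference of −1.24 ± 0.53 (SE, limma adjusted p = 0.50). It was −0.64 in array set 1 alone and −1.19 in array set 2 alone, and −0.72 without Nkx6.1 replicate 2, whose value was far below the others. Both probes had a lower mean with the Nkx6.1 virus. Cacng1, a γ subunit known from skeletal muscle, differed by 0.12 ± 0.44 (SE, limma adjusted p = 0.91), with opposite signs within the array sets (−1.27 in set 1 and 0.80 in set 2). Cacnb3, a cytosolic β subunit, had tied values and differed by 0.020. Its relatives with tied values, Cacna2d2, Cacna2d4 and Cacng6, differed by 0.88, −0.31 and −0.42, where Cacna2d4 had values in 3 of 5 bGAL samples. Without Nkx6.1 replicate 2 the difference of Cacna2d2 was 0.10.

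**Figure D4:**
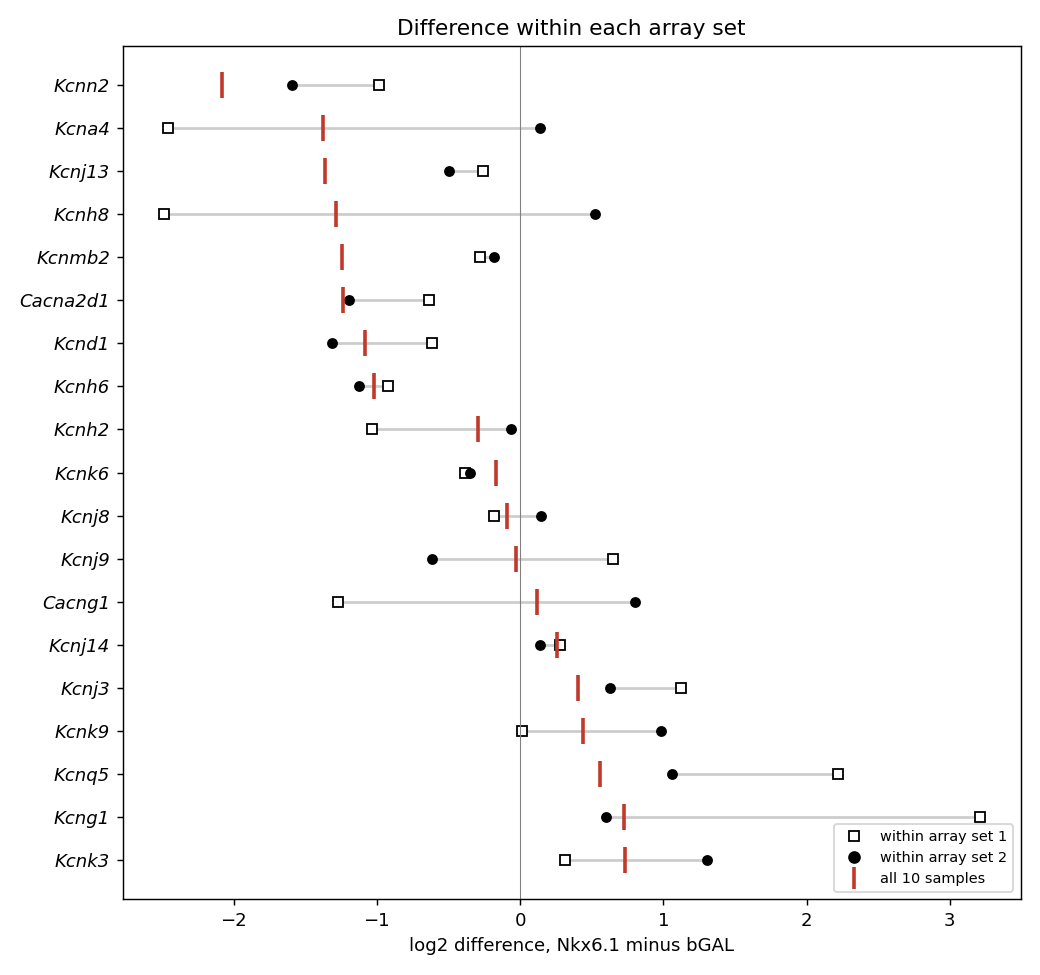
Log2 difference, Nkx6.1 minus bGAL, of the 19 channel genes within array set 1 (open squares, 1 Nkx6.1 sample and 4 bGAL samples), within array set 2 (filled circles, 4 and 1) and over all 10 samples (red bars). Both sets are left of 0 in 8 genes and right of 0 in 6, and Kcna4 and Kcnh8 have the widest gaps between the sets among genes with a negative difference.

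Array set mattered for the 8 genes with a difference below −1. Of these, 6 were lower in both sets, while Kcna4 and Kcnh8 were lower in set 1 only. The differences of Kcnn2, Kcnj13 and Kcnmb2 within each set were smaller than those over the 10 samples, whereas Kcnh6, Kcnd1 and Cacna2d1 in set 2 were close to them or beyond. In the 19 genes as a whole, 8 were lower and 6 higher in both sets and 5 had opposite signs. Over the 5557 genes of that kind with a value in both sets, 33.3% were lower in both, 26.9% higher in both and 39.8% opposite. Each set holds only 1 sample of one of the groups, so these values have little precision. Nkx6.1 replicate 2 was the Nkx6.1 sample furthest from its group's median in 15 of the 19 genes.

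Sodium channels and pacemaker channels gave little to compare. Scn3b, an auxiliary subunit of sodium channels, was tied in array set 1. In array set 2 it stood at 0.99, 1.32 and 1.73 in Nkx6.1 replicates 3 to 5, within 0.01 of 0 in Nkx6.1 replicate 2, and at 1.79 in bGAL replicate 4. Its difference over the 10 samples was 0.45 ± 0.47 (SE, limma adjusted p = 0.67), and −0.78 within array set 2. Scn7a, an atypical sodium channel that senses sodium, differed by −0.59 with tied values. Hcn4, a pacemaker channel opened by hyperpolarisation, stood at −0.16, 0.98, 0.17, 0.083 and 0.17 in Nkx6.1 replicates 1 to 5, and at −0.16, −0.083, −0.16, 0.12 and −0.50 in bGAL replicates 1 to 5. It had tied values and differed by 0.41 ± 0.23 (SE, limma adjusted p = 0.55), and by 0.22 without Nkx6.1 replicate 2.

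The 7 genes with no tied values but a value above 8 in size all had a negative difference, with a median of −5.97. Over all 202 genes of that kind the median was −3.07, and 71 were positive and 131 negative. Scn9a (Nav1.7), a sodium channel pore gene known from sensory neurons and from β cells, stood at −2.56, −2.56, −0.57, −0.022 and 0.022 in Nkx6.1 replicates 1 to 5, and at 22.80, 22.68, 26.27, −0.26 and 16.35 in bGAL replicates 1 to 5. Its 4 extreme values were all in array set 1 bGAL samples, while Nkx6.1 replicate 1 of the same set stood with Nkx6.1 replicate 2 at its lowest value. Whether that shared value is a floor was not tested, and the difference of Scn9a within array set 1 depends on it. The difference was −18.70 ± 4.31 (SE, limma adjusted p = 0.22) over the 10 samples, the lowest p of all 66 genes, with −24.58 in array set 1 alone and −0.52 in array set 2 alone. With a term for the array set over all 10 samples the difference was −12.55 (limma adjusted p = 0.96). The adjusted p was 0.015 within array set 1, where 0.401% of all genes passed, but that fit sets 1 Nkx6.1 sample against 4 bGAL samples and assumes that the lone sample varies like the others. It was 0.0020 without bGAL replicate 4, which leaves array set 2 with no bGAL sample. In array set 2, the bGAL sample lay among the Nkx6.1 samples.

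Kcns3, a modifier subunit of Kv2 channels, stood at 9.57, −8.81, −6.40, −7.30 and −6.90 in Nkx6.1 replicates 1 to 5, and at 8.74, 14.29, 6.40, −7.92 and 12.31 in bGAL replicates 1 to 5. Here the 5 samples of array set 1, Nkx6.1 replicate 1 among them, lay between 6.40 and 14.3, and the 5 of array set 2 between −8.81 and −6.40. The difference over the 10 samples was −10.73, but −0.86 in array set 1 alone and 0.56 in array set 2 alone. Kcne3, an auxiliary subunit of Kcnq1 channels, was at 20.51 in Nkx6.1 replicate 1 and between −1.66 and −0.50 in the other Nkx6.1 samples, and between 17.4 and 21.7 in bGAL replicates 1 to 3, with −1.39 and 0.50 in bGAL replicates 4 and 5. The 2 array sets rather than the 2 groups separated the values of Kcns3 and Kcne3. Kcnk12, a two-pore channel gene, stood at 12.50 in Nkx6.1 replicate 1, and at 8.50 and 5.03 in bGAL replicates 1 and 2 but −0.60 in bGAL replicate 5, and had a difference of −1.61. Kcnip1, which encodes a calcium-binding partner of Kv4 channels, and Cacnb1 and Cacnb2, which encode calcium channel β subunits, had values above 10 in 1 to 3 samples each. In these genes Nkx6.1 replicate 1 shared its value with a bGAL sample, replicate 2 in Cacnb1 and replicate 3 in Cacnb2 and Kcnip1. Whether it is a floor was not tested for Kcnip1, Cacnb1 and Cacnb2. Their differences were −5.97, −3.999 and −5.20, with SEs of 3.30, 3.56 and 3.25. No fold is given for these genes, since the scale of such values is unknown.

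**Figure D5:**
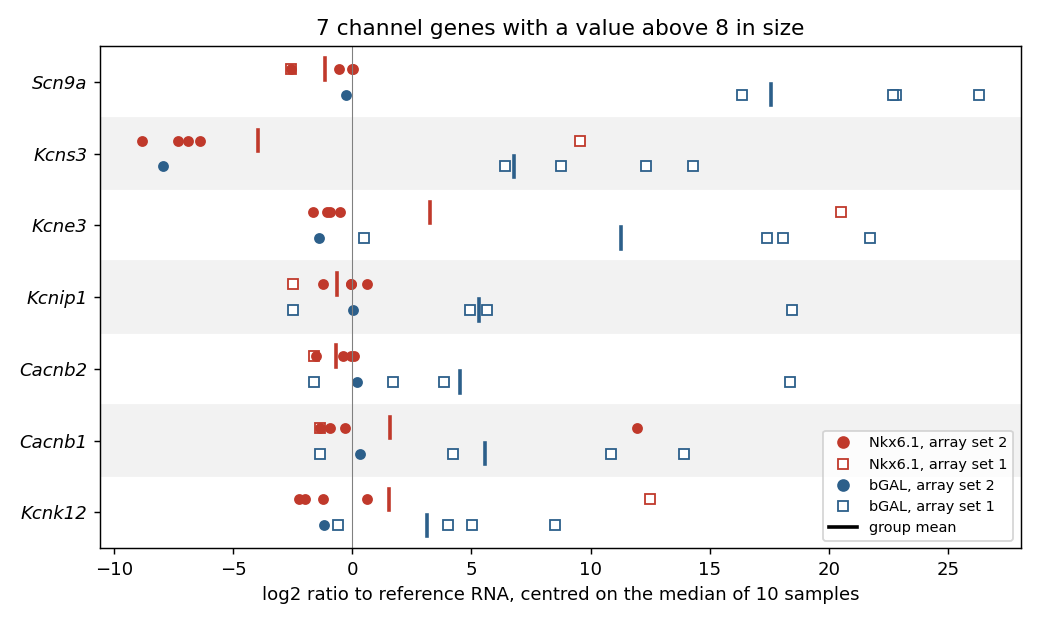
Values of the 7 channel genes with a value above 8 in size and no tied values (x axis: centred log2 ratio; each point 1 sample, Nkx6.1 above bGAL, filled for array set 2 and open for array set 1, bar for the group mean). Every positive value above 8 but the 11.9 of Cacnb1 in Nkx6.1 replicate 2 belongs to a sample of array set 1.

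Of the 40 genes with tied values, 20 had a positive and 20 a negative difference, with a median of 0.0045, and 0 had an unadjusted p under 0.05 (5.25% of the 4036 genes with tied values did). In 21 of the 40 all 5 samples of array set 1 stood at the tied value, in 10 genes 4 of them did and in 9 genes 3. In 22 genes the difference within array set 1 was under 0.001. Their differences over the 10 samples set mostly Nkx6.1 values of array set 2 against mostly tied bGAL values of array set 1. Array set and group are largely mixed in these differences. The sign could differ from that within array set 2, as in Kcnk1 (0.45 and −0.61), or not, as in Cacna1h (1.05 and 1.08). The largest difference in these 22 genes was that of Kcnk4, a mechanosensitive two-pore channel gene. Its bGAL replicate 4 stood at 16.23 while all other samples lay between −0.33 and 0.45. Kcna1 (Kv1.1) stood at −6.16, −6.13 and −2.49 in Nkx6.1 replicates 3 to 5 and at −6.32 in bGAL replicate 4, and at the tied value in the others. Kcna10, named for its call with array weights, stood at −1.60, −1.97 and −1.50 in those Nkx6.1 samples and at −0.55 in bGAL replicate 4. Kcng3 ranged from −1.40 to 13.6 in Nkx6.1 samples and from −1.40 to 17.1 in bGAL samples. The tied genes not named so far were Kcnab1, Kcnab2 and Kcnip3, auxiliary subunits of potassium channels, with differences of −0.999, −0.13 and −1.23.

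A further 43 of the 109 channel genes had too few values to be tested, and 43 of their 46 probes had no value in at least 4 of the 5 array set 1 samples. Their values in array set 2 are given without a test, since it has 1 bGAL sample. Cacna1e, the R-type calcium channel pore, stood within 0.01 of 0, at −0.17, −1.30 and 0.65 in Nkx6.1 replicates 2 to 5, and at −0.052 in bGAL replicate 4. Kcnc1 (Kv3.1) stood within 0.01 of 0, at 0.19, −0.42 and −0.062 in those samples and at −0.60 in bGAL replicate 4. Kcnn1, another SK channel gene, stood at 0.081, −0.42 and −0.44 in Nkx6.1 replicates 3 to 5 and at −0.26 in bGAL replicate 4. Scn8a (Nav1.6), a sodium channel pore gene of neurons, stood at −2.63, −0.48 and 0.79 in Nkx6.1 replicates 3 to 5 and at 0.22 in bGAL replicate 4. In each of these genes the bGAL value lay within the range of the Nkx6.1 samples, except in Kcnc1, where it was lower. Of 42 channels listed for their part in β-cell excitability, 24 were tested and 9 had probes but too few values: Cacna1e, Hcn2, Hcn3, Kcnc1, Kcnmb1, Kcnn1, Scn1a, Scn2a and Scn8a. The others were not analysed here.

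The wider machinery of membrane potential and calcium was described through a list of 71 pumps, exchangers, calcium release channels, chloride channels, TRP channels and calmodulin genes, 47 of them tested. None passed (limma, adjusted over all genes, 0.15% of which passed), 6 had an unadjusted p under 0.05 (9.73% of all genes did), and 18 had a positive and 29 a negative difference, with a median of −0.14 against −0.055 over all genes. Itpr1, the type 1 receptor for inositol trisphosphate that releases calcium from the endoplasmic reticulum, stood at −0.90, −1.73, −0.25, −0.38 and 0.059 in Nkx6.1 replicates 1 to 5, and at 1.54, 1.52, 1.47, 0.15 and −0.059 in bGAL replicates 1 to 5. As in Kcna4, bGAL replicates 1 to 3 were high and bGAL replicates 4 and 5 were nearer to the Nkx6.1 samples. Its difference was −1.57 ± 0.45 (SE, limma adjusted p = 0.33), with −2.02 in array set 1 alone and −0.73 in array set 2 alone. Atp2a2, the calcium pump of that store, differed by −0.43 ± 0.19 (SE, limma adjusted p = 0.51). The rest of the 6 genes went both ways. Slc24a2 (−1.33) and Fxyd6 (−0.98) had a lower mean with the Nkx6.1 virus. Orai1 (0.66) and Slc12a5 (0.85, with tied values) had a higher one.

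Markers of other cell types were measured in the same samples, and called genes were found in the lists for δ cells and for dividing cells. Over all genes tested, 0.15% were called. The mean of the 3 δ-cell markers Sst, Hhex and Rbp4 ranged from −1.61 to −0.024 in Nkx6.1 samples and from 0.55 to 0.99 in bGAL samples, with a negative difference in 3 of 3, of which 2 were called. For 4 macrophage markers it ranged from −2.03 to −0.15 in Nkx6.1 samples and from 0.32 to 0.86 in bGAL samples, with a negative difference in 4 of 4 and 0 called. The mean of 5 markers of dividing cells ranged from 0.67 to 1.82 in Nkx6.1 samples and from −1.20 to −0.42 in bGAL samples, with a positive difference in 5 of 5, of which 2 were called. For 5 β-cell markers the ranges overlapped, −0.29 to 1.88 in Nkx6.1 samples and −0.33 to 0.33 in bGAL samples, and 4 of 5 had a positive difference with 0 called. The mean of the 6 neuronal markers ranged from −0.88 to 2.60 in Nkx6.1 samples and from −0.54 to 5.00 in bGAL samples. A negative difference was seen in 5 of 6, with 0 called. These ranges rest largely on values above 8 in Nefm and Snap25, all in samples of array set 1. The median difference of the 6 markers was −0.043 in array set 1 alone and 0.037 in array set 2 alone. None of the tested α-cell, PP-cell, Schwann, smooth muscle, endothelial and acinar markers was called. Whether any marker is at 0 cannot be read from centred values. The part of these cell types in the values of the channel genes was not tested.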

How the data were processed

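RNA of 10 islet samples, 5 per virus, was measured on 2-colour rat oligonucleotide arrays read with a GenePix scanner, per the labels' protocols. The deposited values were read as log2 ratios, 1 per probe and array. The deposited log2 values had a median of 0 (within 0.001) over the 10 samples in all 17760 probes with 10 values, controls included. No source used here gives their normalization, log base or direction: log2 and islet over reference were assumed, and signal over background is unknown.

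Of 26984 probes, 22 controls were left out, and 15807 of the rest had 1 gene symbol, 0 several and 11155 none. Membership used these symbols; for averaging, they were updated through RefSeq (GRCr8). Probes with at least 3 values per group were averaged per gene, which left 9968 genes, and tested with limma (lmFit, eBayes; version 3.58.1 in R 4.3.3) on 2 groups with Benjamini-Hochberg adjustment over all genes, after checks on simulated data. The simulated data were independent normal noise with added shifts, without an array set effect or tied values, so they do not check those features. The groups come from GEO's labels, and replicates within a group are separate isolations. The text names channels of β-cell excitability from a fixed list, members past the threshold or without overlap of the groups, the 5 largest differences each way among genes without tied values and the 3 largest each way among tied genes; other members are named to account for all 66, and Kcnh4 and Kcna10 were added after their values were seen. The members, gene lists and tests were chosen with earlier results of these data known. Alternatives were array weights, an array set term, fits within each array set, quantile scaling, other filters, the most variable probe per gene, single probes, membership by updated symbols, a replicate block and leaving out each sample; averaging probes before the filter was added after the data were seen. The labels do not state whether replicate numbers pair the samples, and the main fit treated them as unpaired. Every sample column was used.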

Additional observations from a re-analysis of the deposited data

Results flagged for a closer look

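In 90 sets of 5 samples (the 2 groups of each of the 45 named genes), 30 had a highest or lowest sample that stood apart from the other 4 by Dixon's criterion, which chance meets in about 1 of 20 groups without ties. In genes with tied values, 13 of 17 such samples were bGAL replicate 4, the only bGAL sample of array set 2. The other 4 bGAL samples there share 1 tied value, so that any other value meets the criterion and no chance rate applies. These were Cacna1a at 0.524, Cacna1c at 0.075, Cacna1d at 0.149, Cacna1g at −0.405, Cacna1h at 0.203, Kcna1 at −6.325, Kcna10 at −0.552, Kcnj11 at 0.738, Kcnk1 at 1.329, Kcnk15 at −0.209, Kcnk4 at 16.225, Kcnq1 at 0.08 and Scn3b at 1.79. The others among tied genes were Cacna1d at 6.642, Kcnh4 at 1.78 and Kcnk15 at 3.584 in Nkx6.1 replicate 2, and Kcnc2 at 6.67 in bGAL replicate 5.

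In genes without tied or extreme values, 7 of 10 were Nkx6.1 replicate 2: Kcnh8 at 1.898, Kcnk3 at 3.473, Kcnk9 at 2.69, Cacna2d1 at −2.746, Kcnd1 at −2.659, Kcnj9 at −1.439 and Kcnn2 at −3.694. The other 3 were bGAL replicate 3 in Kcnk6 at −1.564 and in Kcnk9 at 1.185, and bGAL replicate 4 in Kcnj13 at −0.62, where the other bGAL samples lay between 0.62 and 1.08. Among genes with extreme values, Nkx6.1 replicate 1 stood apart in Kcne3 at 20.506 and Kcns3 at 9.572, and bGAL replicate 1 in Cacnb2 at 18.342. In Kcne3 and Kcns3 that sample is the only Nkx6.1 sample of array set 1.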

How the results depend on the processing

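The number of all genes past the threshold was 15, and 3 with an array set term, 507 with array weights, 30 after quantile scaling, 39 within array set 1, and 2 to 38 when 1 sample was left out (38 without Nkx6.1 replicate 2; 2 or 3 without Nkx6.1 replicate 3, 4 or 5 or bGAL replicate 2 or 3; 7 and 6 without bGAL replicates 1 and 5). Among channel genes it was 0, and 5 with array weights, 1 within array set 1 (Scn9a) and 1 within array set 2 (Kcnk4), each with 1 lone sample in an arm that is assumed to vary like the others, and 0 to 1 when 1 sample was left out (Scn9a without bGAL replicate 4). With array weights 5 of the other electrical and calcium genes passed, and 0 to 0 with 1 sample left out. The channel median of −0.15 was −0.11 with an array set term, −0.056 after quantile scaling, 0 and −0.0002 within array sets 1 and 2, −1.24 without tied probes, −0.029 without probes above 8, and −0.21 to −0.099 with 1 sample left out. The median of the other electrical and calcium genes, −0.14, was −0.073 with an array set term, 0.054 with array weights, −0.18 when averaged before the filter, −0.097 with 10 values required, 0 within array set 1, −0.20 without tied probes, −0.084 without probes above 8, and −0.18 to −0.081 with 1 sample left out. With the replicate number as a block, 0 of all genes and 0 channel genes passed. Same-numbered samples correlated at −0.096 to 0.18 and others at −0.25 to 0.25, and 1 of 5 Nkx6.1 samples was closest to its own number. The labels do not state pairing. These correlations cannot decide it, since for replicates 2, 3 and 5 the same-numbered samples lie in different array sets.

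Of 45 named genes, 22 turned sign under an alternative and 23 did not. With an array set term these were Cacng1 (−0.24), Kcnj11 (−0.26), Kcnk1 (−0.30), Scn3b (−0.39), Cacnb3 (−0.43), Kcnj9 (0.019), Kcnmb4 (0.027), Kcnn4 (0.69), Kcna1 (1.32) and Kcne3 (3.22). With array weights they were Cacng1 (−0.054), Kcnk3 (−0.072), Cacna1g (−0.088), Kcnk9 (−0.21), Cacnb3 (−0.34), Kcnq5 (−1.25), Cacna1c (0.013), Kcnj9 (0.28), Kcnk6 (0.31) and Kcng3 (0.64). After quantile scaling they were Cacng1 (−0.058), Cacnb3 (−0.084), Cacna1c (0.038), Kcnk6 (0.084), Kcnj9 (0.21), Kcnn4 (0.23), Kcng3 (0.71) and Cacna1b (0.96). Within array set 1 they were Cacnb3 (−1.22), Cacng1 (−1.27), Kcnmb4 (0.078), Kcnj9 (0.65), Kcnn4 (1.59) and Kcne3 (6.095). Within array set 2 they were Kcnj11 (−0.52), Kcnk1 (−0.61), Scn3b (−0.78), Kcna4 (0.14), Kcnj8 (0.14), Kcne3 (0.35), Kcnh8 (0.52), Kcns3 (0.56), Cacna1b (2.44), Kcna1 (2.63) and Kcng3 (3.46). Cacna1c was 0.038 with at least 2 values per group, and Kcnk9 was −0.31 when averaged before the filter. With 1 sample left out, the ranges that crossed 0 were −2.83 to 0.997 for Cacna1b, −0.16 to 0.21 for Cacna1c, −0.059 to 0.067 for Cacna1g, −0.46 to 0.35 for Cacnb3, −0.25 to 0.44 for Cacng1, −5.08 to 0.51 for Kcng3, −0.079 to 0.17 for Kcnj11, −0.36 to 0.083 for Kcnj8, −0.27 to 0.28 for Kcnj9, −0.50 to 0.12 for Kcnk6, −0.093 to 0.70 for Kcnk9, −0.98 to 0.35 for Kcnn4 and −0.58 to 1.17 for Kcnq5. The cause of these changes was not tested.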
